A study of Mus musculus with 26 samples.

Results

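The expression of 41 genes of homologous recombination and Fanconi repair, of 45318 genes in the count files, was compared between 4T1 control cells and cells lacking the long non-coding RNA MaTAR25. The members were taken by name and ordered by step into damage sensing (8 genes), resection (6), strand exchange (10), the Fanconi pathway (10), checkpoint kinases (4) and junction resolution (3). All 41 were found and all 41 passed the filter on low counts, which left 15023 genes to test. In MaTAR25 KO cells, 18 of the 41 genes were higher than in control cells, against 11.9% of all genes tested, and 1 was lower, against 10.7%. Brca1, Exo1, Palb2, Rad54l, Fanca and Eme1 rose 2.85- to 3.68-fold, and Rad52 fell to 0.504 of its control level.

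Homologous recombination mends a DNA break by copying the sister chromatid, and is therefore used mainly during and after DNA replication. The MRN complex (Mre11a, Rad50, Nbn) finds the break, nucleases trim its ends to single strands, and BRCA1, PALB2 and BRCA2 then act in the exchange of strands with the matching sequence. The Fanconi pathway frees replication forks from DNA crosslinks: a core complex adds ubiquitin to the FANCD2 and FANCI pair, and recombination then completes the repair. The kinases ATM and ATR signal the damage, and in mammary epithelium inherited loss of Brca1, Brca2 or Palb2 function is known to predispose to tumors.

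Polyadenylated RNA was sequenced in 9 libraries of 4T1 cells, a BALB/c mouse mammary tumor line: 2 of control cells, 3 of MaTAR25 KO1 and 4 of MaTAR25 KO2. KO1 and KO2 are each a single-cell clone in which CRISPR/Cas9 with paired guides removed DNA around the MaTAR25 transcription start site, chosen as homozygous. The control cells received a guide against Renilla luciferase and were grown from single cells too, by the study's methods. Between 25367211 and 61110585 reads were counted on genes per library. No source used here says that libraries of a group are separate cultures, so p-values measure the spread between these libraries only, and with 1 clone per KO group a clone cannot be told apart from the deletion it carries. For MaTAR25 itself, 35 and 30 reads were counted in control cells and 0 to 11 in the 7 KO libraries. The 6 mammary epithelial markers summed to 3077 to 3211 CPM in control, 2572 to 4098 in KO1 and 1516 to 3267 in KO2, while endothelial markers stayed at 2.36 CPM or less in every library. Leukocyte markers summed to 3.20 to 4.24 CPM in control, 11.4 to 28.4 in KO1 and 1.85 to 20.3 in KO2, with Adgre1 at 0 throughout, and fibroblast markers summed to at most 47.0 CPM with Dcn and Lum at 0 throughout. The part of these other-cell transcripts in the results was not tested.

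Levels are CPM, the reads of a gene scaled to a common library size with TMM factors. A gene was called changed when edgeR's quasi-likelihood test gave a Benjamini-Hochberg adjusted p under 0.1 over all 15023 genes. Of the 41 genes, 18 were called higher (43.9%) and 1 lower (2.44%), the shares over all genes being 11.9% and 10.7%. Gene bounds are given on GRCm38 from GENCODE vM21. The median log2 fold change was 0.75 over the 41 genes and 0.06 over all genes. The 7 KO libraries all lay above both control libraries for 20 of the 41 genes, against 16.9% of all genes, and all lay below for Rad52 alone, against 17.6%. These counts lean on both controls: without control replicate 1 only 4 of the 41 genes were called, and without control replicate 2 only 5. Bard1, Fancb, Fanci and Slx4 also lost their call without some single KO libraries, and for Bard1, Fancb and Slx4 the adjusted p then was at most 0.114. Exo1, Rad54l, Fanca and Eme1 were called in all 15 other fits, which are those with another tool, scaling, filter or design and those without 1 library.

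**Figure D1:**
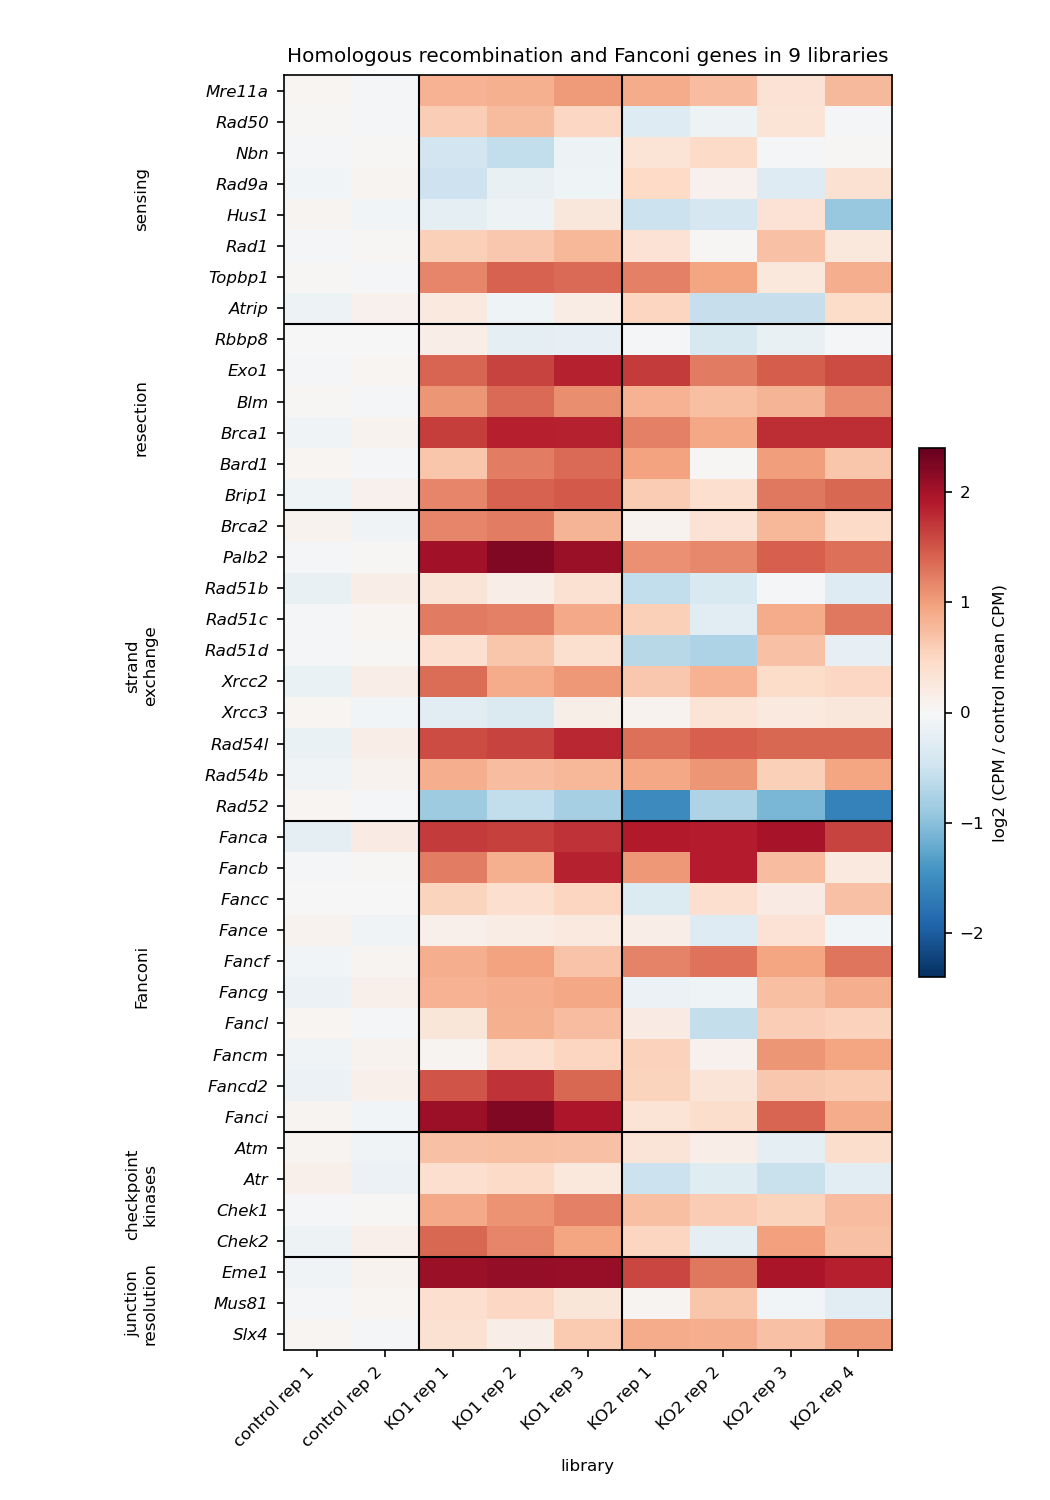
Level of the 41 genes (rows, by step) in the 9 libraries (columns) as log2 of CPM over the mean CPM of the 2 control libraries, red above and blue below control. Most rows are red in the KO1 and KO2 columns, Rad52 is blue in all 7 KO libraries, and Fancd2, Fanci and Palb2 are paler in KO2 than in KO1.

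Both clones were then set beside the same 2 control libraries in a fit with 3 groups. In KO1, 24 of the 41 genes were higher and 1 was lower, against 15.9% and 15.7% of all genes. In KO2, 18 were higher and 2 lower, against 16.5% and 15.0%. Because the controls are shared, the 2 counts are not independent of each other. The median log2 fold change of the 41 genes was 0.85 in KO1 and 0.56 in KO2, against 0.02 and 0.03 over all genes. Higher in both clones were 16 genes, higher in KO1 with no call in KO2 were 8, and 13 genes were called in neither. Of the other 4, Rad52 was lower in both clones, Fancm and Slx4 were higher in KO2 with no call in KO1, and Atr was lower in KO2. The share of all genes in each of these joint classes was not worked out, so the joint counts have no background beside them. Without control replicate 1 and 2 the calls fell to 13 and 16 in KO1 and to 8 and 9 in KO2. The median of the 41 genes over their control means lay between 0.80 and 0.85 (log2) in the KO1 libraries and between 0.34 and 0.67 in the KO2 libraries, with KO2 replicate 2 the lowest.

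**Figure D2:**
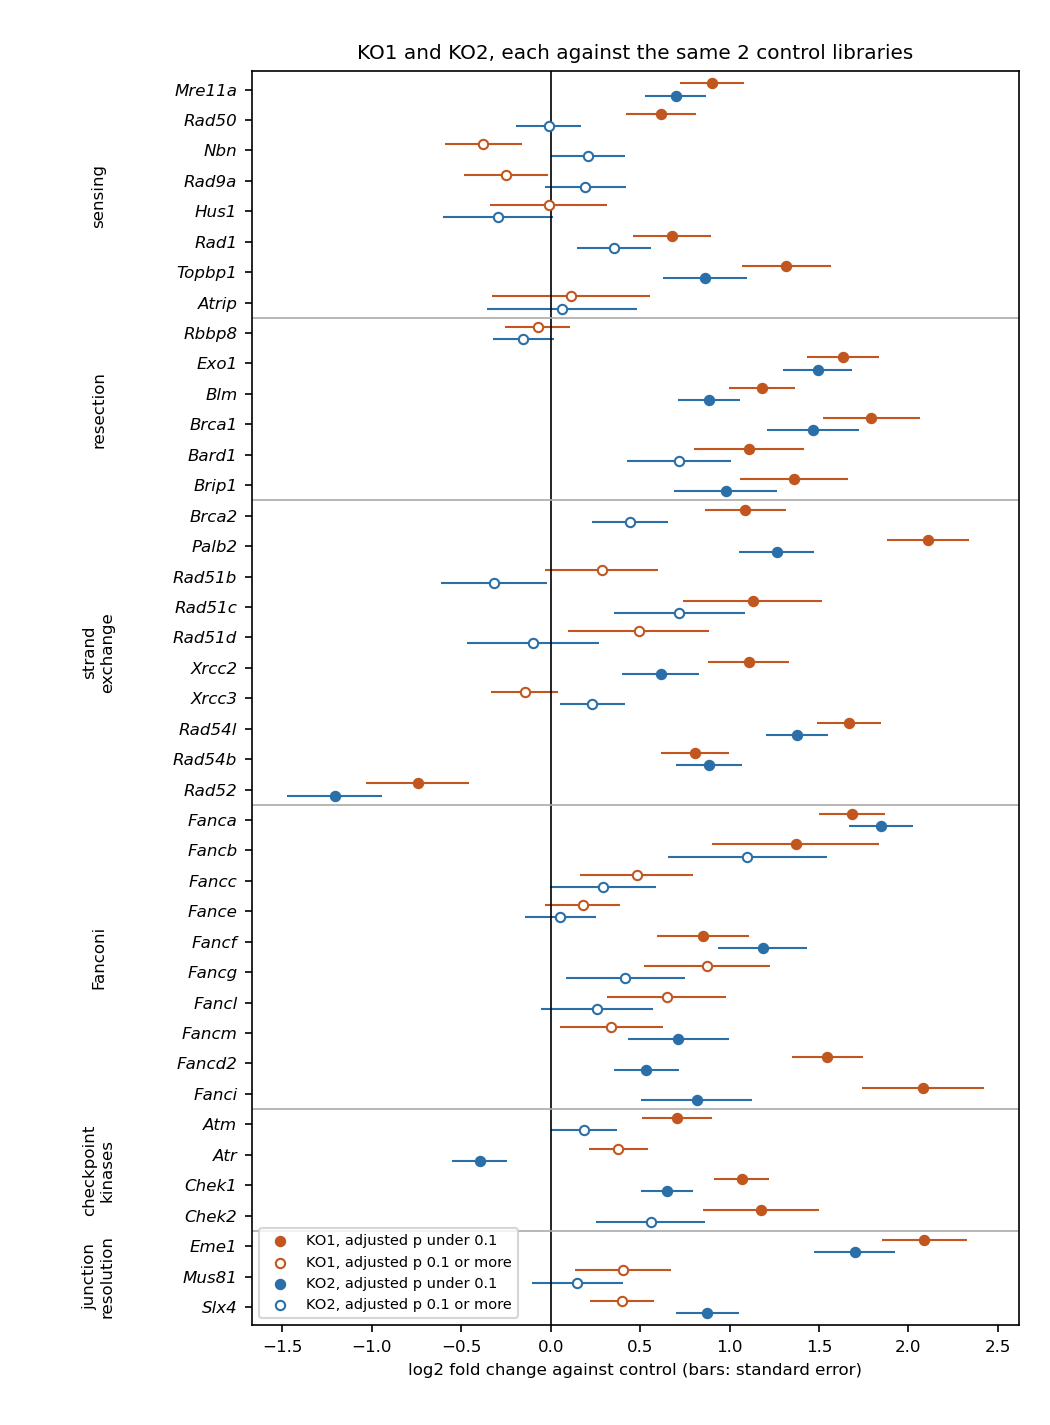
Log2 fold change of each gene in KO1 (orange) and KO2 (blue) against the same 2 control libraries, with standard errors as bars. Filled points have an adjusted p under 0.1. Exo1, Brca1, Rad54l, Fanca and Eme1 lie at 1.38 or more in both clones, while Fanci lies at 2.08 in KO1 and 0.82 in KO2, and Atr lies at 0.38 and -0.40.

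Promoter windows of RefSeq (GRCm38.p6), from 250 bases before to 50 after the gene start, were matched to 32 of the 41 genes. Of these, 4 had more than 1 window, and a gene was counted when any of its windows held the letters. They were searched on both strands for the E2F-type letters TTCCCGC or TTCGCGC, as well as TTGCCGC or TTGGCGC, to which the E2F factors that drive S-phase genes are known to bind, and matches of these may overlap each other. Such letters were in 16 of the 32 genes (50.0%), against 19.1% of 10504 genes tested that had a window and 10.9% of 27025 genes with a window. They were in 9 of 15 genes called higher and in 7 of 17 others. A CCAAT box was in 18 of the 32 genes (56.3%), against 42.7% of tested genes, and the CHR letters TTTGAA of late cell cycle genes were in 4 (12.5%), against 14.1%. Windows were not matched for Exo1, Fancd2, Nbn, Rad50, Rad51d, Rad54b, Rad9a, Rbbp8 and Xrcc2. The 4 stretches shown are those of genes called higher whose E2F-type letters (capitals) lie before the start and outside every exon of GENCODE vM21. Each is printed 5′ to 3′ on the strand of the gene, on chr7:80535120-80535248 (minus strand), chr9:103305083-103305214 (plus), chr1:71103147-71103222 (minus) and chrX:164980376-164980591 (plus).
Blm: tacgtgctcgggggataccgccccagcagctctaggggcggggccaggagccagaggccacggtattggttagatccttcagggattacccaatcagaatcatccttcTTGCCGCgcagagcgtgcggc
Topbp1: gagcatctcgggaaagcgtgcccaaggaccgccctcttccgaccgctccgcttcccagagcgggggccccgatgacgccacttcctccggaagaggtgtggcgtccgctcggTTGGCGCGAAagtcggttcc
Bard1: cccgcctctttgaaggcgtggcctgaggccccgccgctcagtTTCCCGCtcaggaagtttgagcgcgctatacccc
Fancb: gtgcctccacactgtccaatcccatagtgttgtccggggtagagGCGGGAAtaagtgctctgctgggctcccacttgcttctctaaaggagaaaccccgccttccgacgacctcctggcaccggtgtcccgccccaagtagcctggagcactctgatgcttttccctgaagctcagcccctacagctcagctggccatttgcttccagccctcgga

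The letters of Blm lie 142 bases before the RefSeq start, those of Bard1 208 and those of Fancb 172, where they are read on the opposite strand. In Topbp1, 2 matches overlap, at 132 and 129 bases before the start. A match is a description of letters only and no binding was measured here.

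Of the 8 sensing genes, Mre11a and Topbp1 rose in KO cells and 6 were not called, against 11.9% of all genes higher and 10.7% lower. The step's median log2 fold change was 0.19. Mre11a, the nuclease of the MRN complex, was at 79.7 and 75.0 CPM in control, at 138, 139 and 157 CPM in KO1 and at 143, 129, 98.2 and 133 CPM in KO2. All KO libraries lay above both controls, and the mean was 1.73-fold higher (log2 fold change 0.79, SE 0.18, adjusted p 0.0168). Topbp1, which switches on ATR at stalled forks, was at 159 and 154 CPM in control, at 353, 418 and 401 CPM in KO1 and at 364, 303, 187 and 288 CPM in KO2. It too had no overlap, with KO2 replicate 3 the nearest to control, and rose by 1.08 on the log2 scale (SE 0.28, adjusted p 0.0270).

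The partners of Mre11a in the MRN complex differed between the clones. Rad50, the ATPase that holds the DNA ends, was at 88.9 and 84.6 CPM in control, at 130, 147 and 123 CPM in KO1 and at 70.4, 79.9, 109 and 85.0 CPM in KO2. KO2 lay around the control level and KO1 above all other libraries, and KO2 was lower than KO1 by a log2 fold change of -0.63 (SE 0.16, adjusted p 0.0358). Nbn, which recruits ATM to the complex, was at 28.9 and 29.9 CPM in control, at 21.3, 19.5 and 27.1 CPM in KO1 and at 37.0, 40.2, 28.7 and 30.1 CPM in KO2. The order was thus opposite, with KO2 higher than KO1 by 0.59 (SE 0.18, adjusted p 0.0685), and neither clone was called against control. This difference between the clones kept its call in only 7 of 15 other fits.

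The checkpoint clamp of Rad9a, Hus1 and Rad1 marks the edge of single-stranded DNA. Rad1 had no overlap between KO (22.2 to 37.9 CPM) and control (21.4 and 22.0 CPM) and was called in KO1 (log2 fold change 0.68, adjusted p 0.0512) and not in KO2 (0.36, adjusted p 0.241). The difference between the clones for Rad1 did not pass (-0.32, 95% interval -0.67 to 0.03). Rad9a ranged from 45.9 to 90.2 CPM and Hus1 from 25.2 to 60.9 CPM over the KO libraries, both around their control values. Atrip, the partner of ATR, had 0.632 to 1.34 CPM in all libraries. At 0.130 CPM per kb of exon it was the lowest control level of the 41 genes, against 27.3 CPM per kb for Rad9a, the highest. Atrip shares its strand with Trex1 inside its annotated bounds, and reads on the shared stretch may not have been assigned to it. Rad9a overlaps Ppp1ca on the opposite strand, and with the strand setting of the counting not given, its level is uncertain there.

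In the grouping used here, which places Brca1, Bard1 and Brip1 in resection, that step had the largest share called in the pooled comparison. There, 5 of 6 genes were higher in KO cells, with a median log2 fold change of 1.09. In KO2 against control, resection and junction resolution had the same share called (66.7%), all higher, against 16.5% of all genes higher and 15.0% lower. The steps hold few genes each, and their shares were not compared by a test. Exo1, the exonuclease that carries out long-range trimming (chr1:175880581-175913489, plus strand), was at 18.5 and 19.9 CPM in control, at 50.6, 59.3 and 68.8 CPM in KO1 and at 61.4, 45.4, 52.7 and 56.7 CPM in KO2. Every KO library was above both controls and the mean rose 2.94-fold (log2 fold change 1.55, SE 0.19, adjusted p 0.00177). The clones did not differ by more than their spread (-0.14, 95% interval -0.45 to 0.17). Blm, the helicase that works with EXO1 and later takes apart joined strands, was at 28.6 and 27.2 CPM in control, at 58.1, 71.4 and 60.5 CPM in KO1 and at 49.6, 45.8, 49.4 and 61.3 CPM in KO2. It showed no overlap and rose 2.03-fold (log2 fold change 1.02, SE 0.20, adjusted p 0.00940).

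Brca1, the tumor suppressor that promotes resection and then strand exchange (chr11:101488764-101551955, minus strand), was at 27.1 and 30.3 CPM in control, at 90.7, 104 and 103 CPM in KO1 and at 66.6, 54.5, 98.0 and 98.2 CPM in KO2. KO2 replicates 1 and 2 were lower than the other 5 KO libraries, yet all were above control, and the log2 fold change was 1.62 (SE 0.27, adjusted p 0.00543). Brca1 lost its call only without control replicate 1 (adjusted p 0.106). Brip1, the helicase bound by BRCA1 and also known as FANCJ, was at 19.4 and 22.5 CPM in control, at 47.4, 55.8 and 58.1 CPM in KO1 and at 32.1, 27.9, 50.7 and 54.4 CPM in KO2. The same 2 KO2 libraries were the lowest, and the log2 fold change was 1.15 (SE 0.30, adjusted p 0.0300).

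Bard1, the obligate partner of BRCA1, was the only gene called in KO cells whose libraries overlapped control. It ranged from 30.1 to 75.7 CPM in KO cells, with KO2 replicate 2 the lowest and inside the control values of 28.7 and 30.6 CPM (log2 fold change 0.90, SE 0.31, adjusted p 0.0771). It was called in KO1 (1.11, adjusted p 0.0300) and not in KO2 (0.72, adjusted p 0.106), and the difference between the clones did not pass (adjusted p 0.322). Rbbp8, which encodes CtIP, the factor that starts resection with MRN, was at 38.9 to 57.1 CPM in KO cells and 50.8 and 51.3 CPM in control. Its 95% interval reached from -0.43 to 0.20 on the log2 scale.

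Of the 10 strand exchange genes, 4 rose, 1 fell and 5 were not called in KO cells, against 11.9% of all genes higher and 10.7% lower. The median was 0.80. Palb2, the bridge between BRCA1 and BRCA2 (chr7:122107262-122132985, minus strand), was at 5.40 and 5.64 CPM in control, at 22.3, 25.9 and 23.3 CPM in KO1 and at 11.9, 12.3, 15.0 and 13.8 CPM in KO2. The 3 groups did not overlap at all, and each clone was called against control (2.11 in KO1 and 1.26 in KO2, adjusted p 0.000881 and 0.00428). KO2 was lower than KO1 by -0.85 (SE 0.17, adjusted p 0.0185).

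Brca2, which acts on single-stranded DNA at the start of strand exchange, was at 52.3 and 46.6 CPM in control, at 112, 116 and 86.9 CPM in KO1 and at 52.7, 62.7, 85.4 and 68.0 CPM in KO2. KO2 replicate 1 lay just above the higher control library, and the pooled KO comparison did not pass (log2 fold change 0.75, adjusted p 0.121). KO1 was called (1.09, adjusted p 0.00978), KO2 was not (0.44, adjusted p 0.160), and the clones differed by -0.64 (SE 0.18, adjusted p 0.0503).

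Rad54l, a motor protein that aids strand invasion (chr4:116094264-116123690, minus strand), was at 12.1 and 15.1 CPM in control, at 40.4, 42.0 and 47.6 CPM in KO1 and at 34.1, 37.1, 35.3 and 35.3 CPM in KO2. KO1 and KO2 were each tight and far above control, with a log2 fold change of 1.51 (SE 0.20, adjusted p 0.00208). Rad54b, its paralog, was at 17.2 and 19.3 CPM in control, at 33.5, 30.6 and 31.6 CPM in KO1 and at 34.6, 37.8, 27.3 and 35.2 CPM in KO2. It rose less, by 0.85 (SE 0.18, adjusted p 0.0123), with the clones overlapping each other. Rad54l and Rad54b overlap Lrrc41 and Fsbp, respectively, in the annotation.

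Rad51b, Rad51c, Rad51d, Xrcc2 and Xrcc3 encode proteins that work in shared complexes during strand exchange, and of these 5 genes only Xrcc2 was called in KO cells. Xrcc2 was at 12.3 and 15.3 CPM in control, at 35.1, 25.7 and 28.5 CPM in KO1 and at 21.7, 24.5, 18.9 and 19.6 CPM in KO2. It rose by 0.85 (SE 0.27, adjusted p 0.0596), and its clones did not overlap although their difference did not pass (-0.49, adjusted p 0.109). Xrcc2 was called in both clones, and its call in KO2 was kept in 9 of 15 other fits (0.48 to 0.78). That call was lost without either control or KO2 replicate 1, with the replicate block, with no filter and with only the groups compared. Rad51c ranged from 7.88 to 22.6 CPM in KO cells against 9.11 and 9.76 CPM in control, with KO2 replicate 2 below both, and was called in KO1 (1.13, adjusted p 0.0628) and not in KO2 (0.72, adjusted p 0.183), with no call for their difference (adjusted p 0.414). Rad51b was at 1.67 to 3.25 CPM, Rad51d at 14.4 to 39.4 CPM and Xrcc3 at 26.2 to 41.7 CPM in KO cells, and none of these was called in either clone.

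Rad52, which anneals single strands and has a back-up role in mammals, was the only one of the 41 genes to fall in KO cells. The gene (chr6:119902698-119922828, plus strand) was at 22.3 and 20.8 CPM in control, at 11.9, 14.3 and 12.4 CPM in KO1 and at 7.47, 12.8, 10.0 and 6.97 CPM in KO2. The highest KO library was 14.3 CPM, below both controls, and the log2 fold change was -0.99 (SE 0.28, adjusted p 0.0402). Both clones were called, at -0.74 (adjusted p 0.0911) and -1.21 (adjusted p 0.0128), and the difference between them did not pass (adjusted p 0.236). The call in KO1 was kept in 8 of 15 other fits (-0.83 to -0.68) and was lost without either control or any single KO1 library. That in KO2 was kept in 14 of them. The pooled call was kept in 12 and was lost without either control and with the replicate number as a block.

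In the Fanconi pathway 4 of 10 genes rose in KO cells, 6 were not called and none fell, with a median of 0.84. Of all genes, 11.9% were higher and 10.7% lower. Fanca, a core complex subunit (chr8:123268300-123318576, minus strand), was at 25.1 and 33.8 CPM in control, at 94.3, 92.4 and 97.8 CPM in KO1 and at 110, 108, 116 and 90.4 CPM in KO2. The lowest KO library was far above the higher control, and the log2 fold change of 1.78 (SE 0.18) had an adjusted p of 0.00102, the lowest of the 41 genes. Fancf, the core adaptor, had low levels, at 4.17 and 4.61 CPM in control, at 8.08, 8.59 and 7.09 CPM in KO1 and at 10.0, 10.8, 8.48 and 10.7 CPM in KO2. It rose by 1.05 (SE 0.27, adjusted p 0.0270) with no overlap. Fanca overlaps Zfp276 and Fancf overlaps Gas2 on the opposite strand.

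Fancb, the X-linked subunit that scaffolds the ligase, was at 11.3 and 11.6 CPM in control, at 26.6, 20.7 and 41.4 CPM in KO1 and at 23.5, 42.2, 19.0 and 13.5 CPM in KO2. Both clones were widely spread, with KO2 replicate 4 the nearest to control, and the log2 fold change was 1.22 (SE 0.43, adjusted p 0.0836). Fancl, the ubiquitin ligase itself, was at 14.0 to 38.0 CPM in KO cells and 20.3 and 21.6 CPM in control and was not called in either clone. Fancc (5.75 to 11.9 CPM), Fance (26.1 to 41.3 CPM) and Fancg (7.42 to 15.6 CPM), also core subunits, overlapped control and were not called. Fancm, the translocase that anchors the core to DNA, was at 18.2 to 36.2 CPM in KO cells and was called in KO2 (0.71, adjusted p 0.0963) and not in KO1 (0.34, adjusted p 0.426), with no call for their difference (adjusted p 0.334). Its call in KO2 was kept in 4 of 15 other fits (0.42 to 0.87, adjusted p up to 0.370) and was lost without any of 8 single libraries.

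The substrates of the core complex showed the largest differences between the clones. Fancd2 (chr6:113531682-113597017, plus strand) was at 17.8 and 21.3 CPM in control, at 55.6, 65.0 and 50.6 CPM in KO1 and at 28.2, 24.2, 30.6 and 30.3 CPM in KO2. The groups did not overlap, KO1 was 2.92-fold and KO2 1.45-fold above control (adjusted p 0.00133 and 0.0620), and KO2 was lower than KO1 by -1.01 (SE 0.16, adjusted p 0.00684). Fancd2 kept its call in KO2 in 10 of 15 other fits (0.43 to 0.67). It lost that call without either control, with the replicate block, with no filter and with only the groups compared. Its pooled KO comparison just missed the threshold (log2 fold change 1.06, adjusted p 0.105). Fanci, its binding partner (chr7:79391929-79450264, plus strand), was at 8.43 and 7.63 CPM in control, at 33.5, 37.7 and 30.8 CPM in KO1 and at 10.0, 10.7, 21.0 and 14.8 CPM in KO2. Every KO library exceeded both controls, and KO1 was 4.23-fold and KO2 1.76-fold above control (adjusted p 0.00370 and 0.0876). The call in KO2 was kept in 5 of 15 other fits (0.56 to 0.95, adjusted p up to 0.350) and was lost without any of 7 single libraries, while that in KO1 was kept in all 15. KO2 was lower than KO1 by -1.26 (SE 0.26, adjusted p 0.0189), the largest difference between the clones among the 41 genes. Both clones pooled gave 1.50 (SE 0.55, adjusted p 0.0982), and leaving out any of 6 libraries ended that call, namely either control, any KO1 library or KO2 replicate 3 (adjusted p 0.121 to 0.412).

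Of the 4 checkpoint kinases 1, Chek1, was called in the pooled comparison, against 11.9% of all genes higher and 10.7% lower. The median of the 4 was 0.64. Chek1, the effector of ATR, was at 56.9 and 58.7 CPM in control, at 108, 122 and 134 CPM in KO1 and at 94.9, 88.1, 83.7 and 96.2 CPM in KO2. The 3 groups were fully apart, with a pooled log2 fold change of 0.85 (SE 0.20, adjusted p 0.0210) and KO2 lower than KO1 by -0.42 (SE 0.12, adjusted p 0.0573). Chek2, the effector of ATM, was at 15.4 to 47.4 CPM in KO cells against 16.7 and 19.7 CPM in control and had a pooled log2 fold change of 0.86 that did not pass (SE 0.36, adjusted p 0.139). It was called in KO1 (1.18, adjusted p 0.0294) and not in KO2 (0.56, adjusted p 0.213), with no call for their difference (adjusted p 0.150).

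Atr, the kinase of stalled forks (chr9:95857597-95951781, plus strand), was at 73.1 and 60.6 CPM in control, at 88.5, 92.0 and 80.0 CPM in KO1 and at 47.0, 54.9, 46.2 and 55.1 CPM in KO2. Control lay between the clones: KO2 fell by 0.40 on the log2 scale (adjusted p 0.0907), KO1 was not called (0.38, adjusted p 0.128), and KO2 was lower than KO1 by -0.77 (SE 0.14, adjusted p 0.0113). The call of KO2 against control was kept in 5 of 15 other fits (-0.52 to -0.24, adjusted p up to 0.533) and was lost without any of 7 single libraries, while that between the clones was kept in all 15. The pooled log2 fold change was -0.01. Atm, the kinase of open breaks, was at 47.8 and 43.2 CPM in control, at 73.6, 75.2 and 74.1 CPM in KO1 and at 56.2, 50.7, 39.0 and 60.8 CPM in KO2. KO1 was narrow and above all other libraries (0.71, adjusted p 0.0305), KO2 was not called against control (0.18, adjusted p 0.501), and the clones differed by -0.52 (SE 0.16, adjusted p 0.0651).

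**Figure D3:**
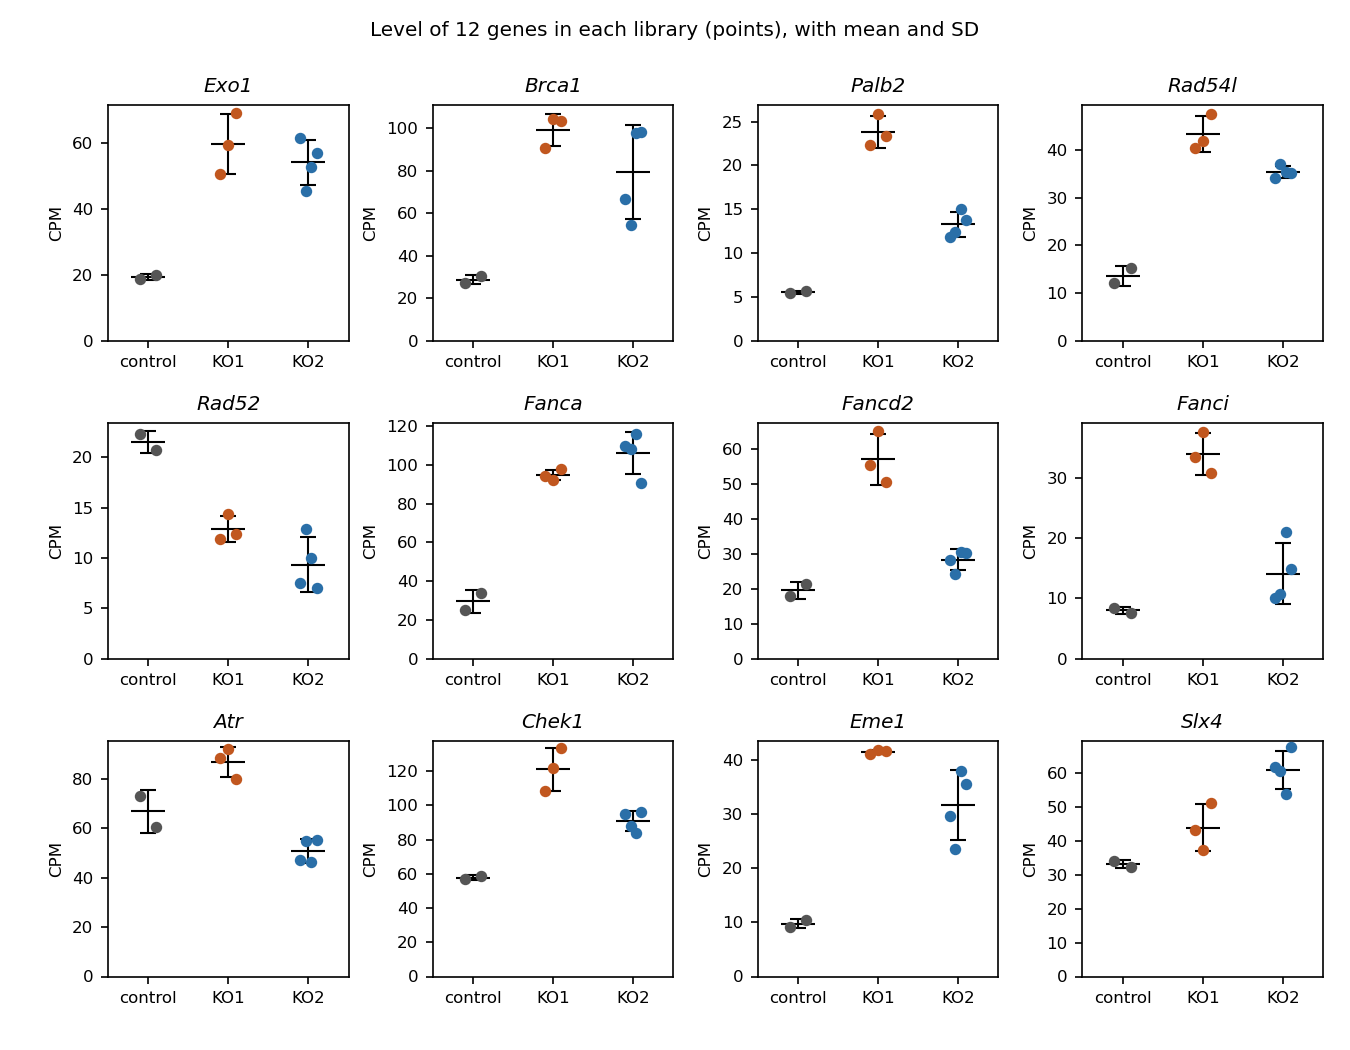
CPM of 12 of the genes in each library (points), with the group mean and SD (bars), for control, KO1 and KO2, each vertical axis starting at 0. Exo1, Brca1, Rad54l, Fanca and Eme1 are above control in all 7 KO libraries, Rad52 is below it, Fancd2 and Fanci are highest in KO1, Slx4 is highest in KO2, and Atr is above control in KO1 and below it in KO2.

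The junction nucleases act last, when joined DNA strands are cut apart. Eme1 (chr11:94644996-94653964, minus strand) was at 9.15 and 10.3 CPM in control, at 41.1, 41.8 and 41.5 CPM in KO1 and at 29.6, 23.5, 37.9 and 35.6 CPM in KO2. It had the largest log2 fold change of the 41 genes, 1.88 (SE 0.26, adjusted p 0.00272), and overlaps Lrrc59 and Mrpl27 on the opposite strand. Mus81, the catalytic partner of EME1, was at 18.0 to 34.1 CPM in KO cells against 20.6 and 22.2 CPM in control and was not called (0.26, adjusted p 0.510). Slx4, the scaffold that gathers the nucleases, was at 34.1 and 32.4 CPM in control, at 43.1, 37.4 and 51.1 CPM in KO1 and at 61.7, 60.7, 53.9 and 67.7 CPM in KO2. All KO libraries were above control (0.69, SE 0.23, adjusted p 0.0728), and Slx4 was higher in KO2 than in KO1 by 0.48 (SE 0.15, adjusted p 0.0707).

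Over the 41 genes, KO2 was higher than KO1 for 2, against 10.2% of all genes, and lower for 8, against 9.43%. The libraries of the clones did not overlap for 14 genes, 2 of them higher in KO2 and 12 lower, against 11.9% and 12.6% of all genes. The 12 were Rad50, Brca2, Palb2, Rad51b, Xrcc2, Rad54l, Fancd2, Fanci, Atm, Atr, Chek1 and Eme1. The median difference was -0.33 on the log2 scale, against 0.02 over all genes. The number called went from 10 to 16 without KO2 replicate 3, to 4 without KO1 replicate 2 and to 6 without KO1 replicate 1 or either control. Palb2, Fancd2, Fanci and Atr were called in all 15 other fits. The call was kept in 13 of them for Rad50, 12 for Brca2, 9 for Atm, 8 for Chek1, 7 for Nbn and 6 for Slx4.

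Because proteins of this pathway work in pairs, 9 ratios of partner transcripts were compared within libraries, chosen after the values had been seen. The Eme1 to Mus81 ratio was 0.445 and 0.466 in control, 1.46, 1.38 and 1.58 in KO1 and 1.32, 0.689, 1.85 and 1.97 in KO2, so all KO libraries were above control, by 3.07-fold on the mean log2 scale. The Palb2 to Brca2 ratio was 0.103 and 0.121 in control and 0.176 to 0.269 in KO cells, a 1.89-fold difference, while the Bard1 to Brca1 ratio went from 1.13 and 0.949 to between 0.480 and 0.871. For each of these 3 ratios the two-sided exact permutation test of 2 against 7 libraries gave p = 0.0278, the smallest it can give over 36 splits, and 0.0833 after adjustment over the 9 ratios. The Fanci to Fancd2 ratio was 0.359 and 0.473 in control and 0.355 to 0.688 in KO cells and overlapped (exact permutation p = 0.250). The Mre11a to Nbn ratio was 2.76 and 2.51 in control, 6.48, 7.14 and 5.79 in KO1 and 3.86, 3.21, 3.42 and 4.40 in KO2. All KO libraries were above control, 1.78-fold on the mean log2 scale (exact permutation p = 0.0556, 0.125 after adjustment), and KO2 lay below KO1 without overlap, by -0.80 (exact permutation p = 0.0286, the smallest over 35 splits, and 0.257 after adjustment). The other 4 ratios, Rad50 to Nbn, Rad51d to Xrcc2, Rad51c to Xrcc3 and Atrip to Atr, had exact permutation p of 0.167 to 0.889.

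Other genes of the pathway, written as a list of 50 of which 49 were tested, had 14 higher (28.6%) and 1 lower (2.04%) in KO cells, against 11.9% and 10.7% of all genes. Their median was 0.50 on the log2 scale. The largest rises were in Dna2, a resection nuclease (2.57, adjusted p 0.00240), Rmi2, a partner of BLM (1.76, adjusted p 0.00469), and Fignl1 (1.69, adjusted p 0.00776), and Faap20 fell (-0.75, adjusted p 0.0330). In KO1 24 of these 49 genes were higher and 2 lower, against 15.9% and 15.7% of all genes, and in KO2 16 and 2, against 16.5% and 15.0%. Among other repair pathways, to be read against the same 11.9% and 10.7% in KO cells, end joining had 1 higher and 1 lower of 12 tested (8.33% each, median 0.46), mismatch repair 2 and 1 of 7 (0.53), nucleotide excision repair 3 and 1 of 13 (0.04) and base excision repair 5 and 1 of 15 (0.35). In end joining Paxx fell (-1.11) and Poll rose (0.65), and in mismatch repair Mlh3 fell (-0.88) while Msh6 (1.20) and Pms2 (0.60) rose. In nucleotide excision repair Xpc fell (-0.94) while Cetn2 (1.03), Ercc3 (0.91) and Ddb1 (0.90) rose, and in base excision repair Polb fell (-1.11) while Ung (2.58), Parp1 (1.22) and Apex2 (1.12) were among the 5 that rose. The p53 target list had 1 higher (Bax) and 4 lower of 14, the lower ones including Gadd45a (-3.16), Sesn2 (-2.50) and Bbc3 (-2.12), of which the first 2 are also known to respond to amino acid stress. Whether p53 is active in these cells was not tested, so the list gives levels of these genes only.

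Genes of DNA replication in S phase had a larger median than the repair genes, a difference that was not tested. Of 25 tested, 23 were higher and none lower in KO cells, with a median of 1.49, including Cdc6 (2.79), Mcm4 (2.33) and Gins2 (2.02). By library, the median of this list over its control means was 1.57 to 1.70 (log2) in KO1 and 1.25 to 1.48 in KO2. Mitosis genes were higher for 12 of 22 and lower for none (median 0.64), including Mybl2 (1.74), Mki67 (1.25) and Birc5 (1.25). Many genes of homologous recombination are known to be transcribed in S phase, and the part of the cell cycle in the change of the 41 genes was not tested. More cells in S phase and more RNA per cell cannot be told apart in bulk RNA. In the study's BrdU labeling, a smaller share of KO1 than of control cells was in S phase and a larger share in G2. How those shares relate to the RNA levels was not tested.

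**Figure D4:**
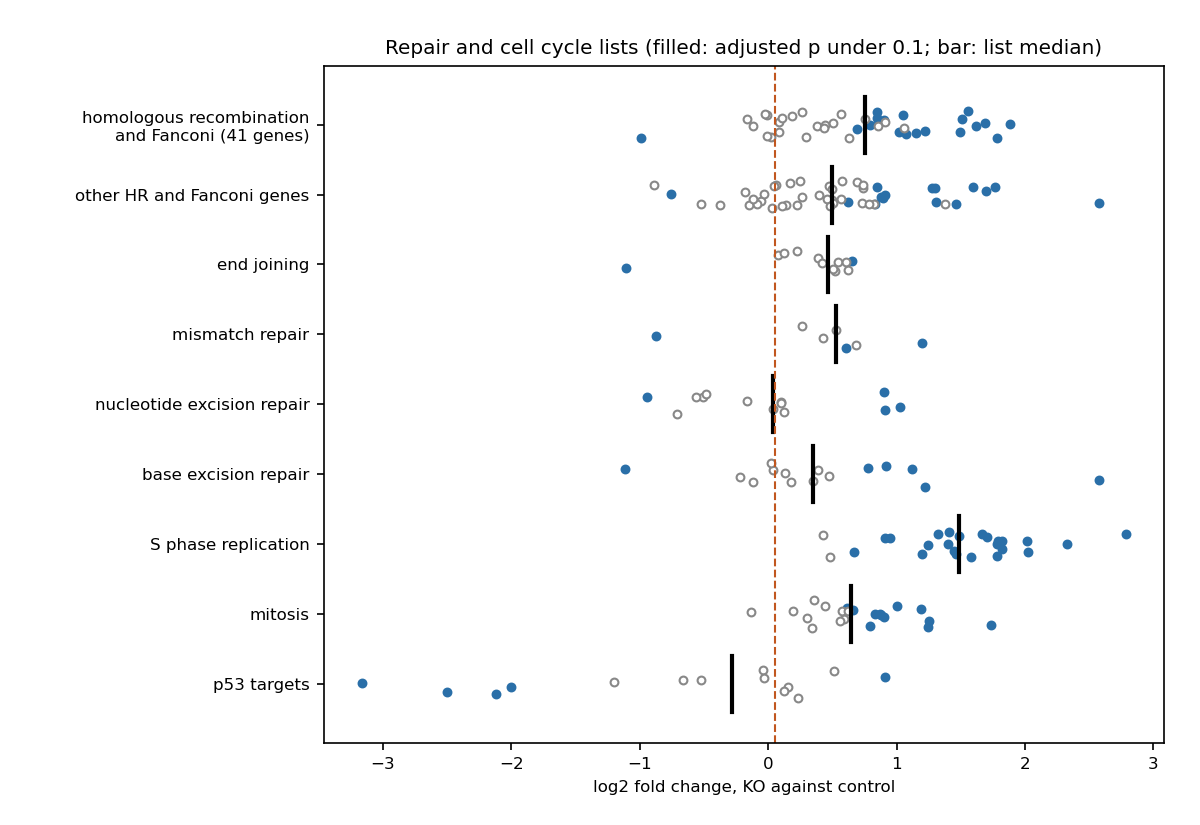
Log2 fold change in KO against control for each tested gene of 9 lists (points, filled where the adjusted p is under 0.1), with the list median (black bar) and the median of all 15023 genes (dashed line, 0.06). The median is 0.75 for the 41 genes, 1.49 for S phase replication, 0.64 for mitosis and 0.04 for nucleotide excision repair.

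Chromatin bound by MaTAR25 had been mapped by ChIRP-seq, in which biotinylated oligos pull down an RNA with its DNA, in 4T1 cells and in MMTV-Neu-NDL mammary tumor cells. In the list of the total oligo pool in 4T1 cells, a peak lay inside 26 of the 41 genes (63.4%), against 51.5% of 14949 tested genes with a position. The even and odd oligo pools gave 25 and 26 genes (61.0% and 63.4%, against 45.1% and 44.7%), and the NDL list 22 (53.7%, against 50.5%). Gene length moved with these shares and its part was not tested. The median length was 56670 bp for the 26 genes with a peak, 14181 bp for the other 15, and 34167 bp for all 41, against 18653 bp for all tested genes and 40771 bp for those with a peak. Of the peaks inside the 41 genes in the 4T1 total list, 63 were annotated to introns, 11 to exons, 7 to transcript ends and 5 to promoters. These labels refer to single annotated transcripts. The 5 promoter peaks were in Xrcc3, Rad54b, Topbp1, Atm and Fancm, and none reached the start of its gene by the annotated bounds. The highest score was in Brip1, at 752.7 and rank 187 of 76806, on chr11:86068481-86069362 in intron 18 of 19 (GRCm38). A peak overlapped this site in the list of the even pool (score 304.9) and in the NDL list (655.7). The list of the odd pool had no peak there, and its highest score inside Brip1, at another site, was 117.5. In the 4T1 total list, Rad51b, a gene of 517409 bp, held 23 peaks. Of the 17 genes called in both clones, 11 had a peak inside the gene in this list and 6 did not, namely Exo1, Xrcc2, Rad52, Fanca, Fancf and Eme1. Of these 6, Exo1, Xrcc2, Rad52 and Fanca had a peak in the list of the odd pool, Exo1 and Fanca also in the NDL list, and Fancf and Eme1 in none of the 4 lists. Each list stands for a whole group of pulldowns, so no error between replicates can be given for peaks.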

How the data were processed

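RNA-seq values were analysed as deposited raw counts per gene, 1 file per library. The authors produced these raw counts from single-end reads, aligned with STAR to GRCm38 and assigned by HTSeq to genes of GENCODE vM5. The strand setting of HTSeq was not given in the sources used here, and 26 of the 41 genes overlap another annotated gene, 14 of them a protein-coding one, so their counts are uncertain where bounds overlap. Between 33.9 and 37.0% of the counts were not assigned to a gene and were left out. Most of these were reads that aligned at several places, which made up 24.1 to 27.5% of all counts. The file of KO2 replicate 2 lists each gene 3 times and was used once. For ChIRP-seq, each deposited list holds a HOMER score per peak, with 1 list per group, called by the authors with HOMER's script for replicates against Ppib pulldowns (GRCm38, GENCODE vM16).

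Of 45318 genes, 44585 had a symbol in the reference table. In R 4.3.3, edgeR 4.0.16 was run with filterByExpr and TMM factors, and its quasi-likelihood p-values were adjusted by Benjamini-Hochberg over all 15023 genes (threshold 0.1). All KO libraries against control were 1 contrast, and KO1, KO2 and their difference came from a fit with 3 groups. The fits were tested on simulated counts. Single ratios were compared by two-sided exact permutation tests in scipy 1.17.1. Fold changes of single genes are fitted values. The 95% intervals are the estimate with its standard error, derived from the test statistic, times a normal quantile. With so few libraries they are narrower than the quasi-likelihood test allows. For Rad51c in KO2 the interval was 0.003 to 1.44, with an unadjusted quasi-likelihood p of 0.0781. Levels per kb were divided by merged exon length in GENCODE vM21, which also gave gene positions, and a peak counted as inside a gene from an overlap of 1 bp.

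The 41 members, the other lists and the tests were chosen with earlier results of these data known. Every member is named, with all libraries for those called without overlap in KO against control or called between the clones. Of the other lists, up to 3 called genes in each direction may be named. Alternatives were DESeq2 1.42.0, RLE size factors, no filter (at least 1 count), at least 10 counts in every library, an adjusted p of 0.05, a block for replicate numbers, the 3-group fit for the pooled contrast, fits of just the groups being compared, and fits without 1 library each. For peaks they were a score of at least 100, the peak centre and 5 kb added to each side. The partner ratios and their values without each library were added after seeing the data.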

Additional observations from a re-analysis of the deposited data

Results flagged for a closer look

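For 10 of the 41 genes the effect of KO2 differed from that of KO1 by a test of the difference itself, in the 3-group edgeR quasi-likelihood fit at a Benjamini-Hochberg adjusted p under 0.1. This was 24.4% of the 41 genes, near the 19.6% called among all genes tested. The difference (KO2 minus KO1, log2) was -0.63 for Rad50, -0.64 for Brca2, -0.85 for Palb2, -1.01 for Fancd2, -1.26 for Fanci, -0.52 for Atm, -0.77 for Atr and -0.42 for Chek1, all lower in KO2. It was 0.59 for Nbn and 0.48 for Slx4, both higher in KO2. No gene of the 41 had a library far from the others of KO2, the only group large enough for that check.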

How the results depend on the processing

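The number of genes called in KO against control, 19, was 12 with the replicate number as a block and 4 to 24 without single libraries, with 4 and 5 without control replicate 1 and 2 and 24 without KO2 replicate 2. For KO1 against control, 25 became 13 to 27 without single libraries, with 13 and 16 without the controls, and for KO2 against control, 20 became 8 to 23, with 8 and 9. The median log2 fold change in KO2 of 0.56 was 0.39 with the replicate block and 0.48 to 0.67 without single libraries. For KO2 against KO1, 10 calls became 5 at an adjusted p of 0.05, 5 with the replicate block, 6 with only the groups compared and 4 to 16 without single libraries. Without a control only 1 control library remains, which is assumed to vary like the other groups. The Atrip to Atr ratio, 0.09 higher in KO (log2), ranged from -0.16 to 0.34 without single libraries and was below 0 in 3 of these 9 values, without control replicate 1, KO2 replicate 1 (-0.07) and KO2 replicate 4 (-0.02). Genes with a peak inside fell from 26 to 15 at a score of at least 100, against 23.3% of tested genes. The cause was not tested, apart from the fewer libraries and stricter thresholds that these settings bring. Over the other fits, called genes kept their call in 928 values and lost it in 182, and no sign turned. Same-numbered libraries correlated at -0.15 to 0.04 in their deviations from group means, so the numbers were not taken as pairs.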
